A study of Mus musculus with 20 samples.

Results

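The comparison described here set 5 knockout arrays against 5 control arrays of imiquimod-treated abdominal skin, 10 of the 20 arrays deposited, over the 22180 genes that a probe set with a single gene symbol represented. Both groups carried loxP-flanked Zfp36 alleles (genotype zfp36 fl/fl). The knockouts also carried K14 cre (zfp36 fl/fl K14 cre), so the controls were Cre-negative. All 10 mice had imiquimod, a Toll-like receptor 7 agonist used to provoke a psoriasis-like skin inflammation, put on the skin on 5 consecutive days, and abdominal skin was taken 4 h after the last dose. The other 10 arrays held mock-treated skin of the same 2 genotypes, with 5 mice each, and are used here as the untreated background. The labels used here name no age, sex or strain.

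Zfp36 encodes tristetraprolin, a zinc finger protein that binds AU-rich elements in the 3′ ends of messenger RNAs and recruits the deadenylation machinery, so that the bound messages decay sooner. Messages of Tnf, Il1b, Il23a, Ccl3 and neutrophil-attracting chemokines are among its reported targets, and mice without the protein in all cells develop an inflammatory disease driven by TNF. The keratin 14 promoter drives Cre in keratinocytes of the basal epidermis and the hair follicle, while immune cells, fibroblasts, fat and muscle of the same sample are outside its reach. Each array read RNA of the whole skin, in which a larger number of cells of a type and more RNA per cell cannot be told apart.

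Values are log2 probe set signals as deposited, with the log base read from the values, and a difference is the knockout mean minus the control mean on that scale. Array medians lay between 4.94 and 5.04. The 10 imiquimod arrays were alike over all genes, with correlations of 0.972 to 0.985 within controls, 0.977 to 0.987 within knockouts and 0.969 to 0.986 between the groups. Some arrays stood apart in tissue make-up. The mean of 30 hair shaft and follicle genes was 8.88 on control replicate 5, 8.70 on knockout replicate 1 and 7.06 on knockout replicate 4, against 5.16 to 5.79 on the other 7 arrays. The mean of 20 neutrophil genes was 6.76 on knockout replicate 4, against 5.33 to 5.65 on the other knockouts and 4.81 to 5.21 on the controls. Skeletal muscle genes averaged 8.13 to 8.81 in controls and 7.65 to 8.15 in knockouts. Adipocyte genes averaged 7.52 to 8.11 in controls and 6.93 to 7.66 in knockouts, and sebaceous gland genes 8.71 to 9.20 and 8.13 to 8.94. The part of these shifts in the gene differences below was examined only by the alternative fits named beside them. With the muscle list as a covariate, the median difference of the hair list moved from 0.25 to -2.47. That of the melanocyte list moved from -0.07 to -0.94, and with the adipocyte list the hair median was -1.17. The muscle list was itself lower in knockouts, so that covariate cannot separate muscle content from genotype or from other tissue make-up.

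**Figure D1:**
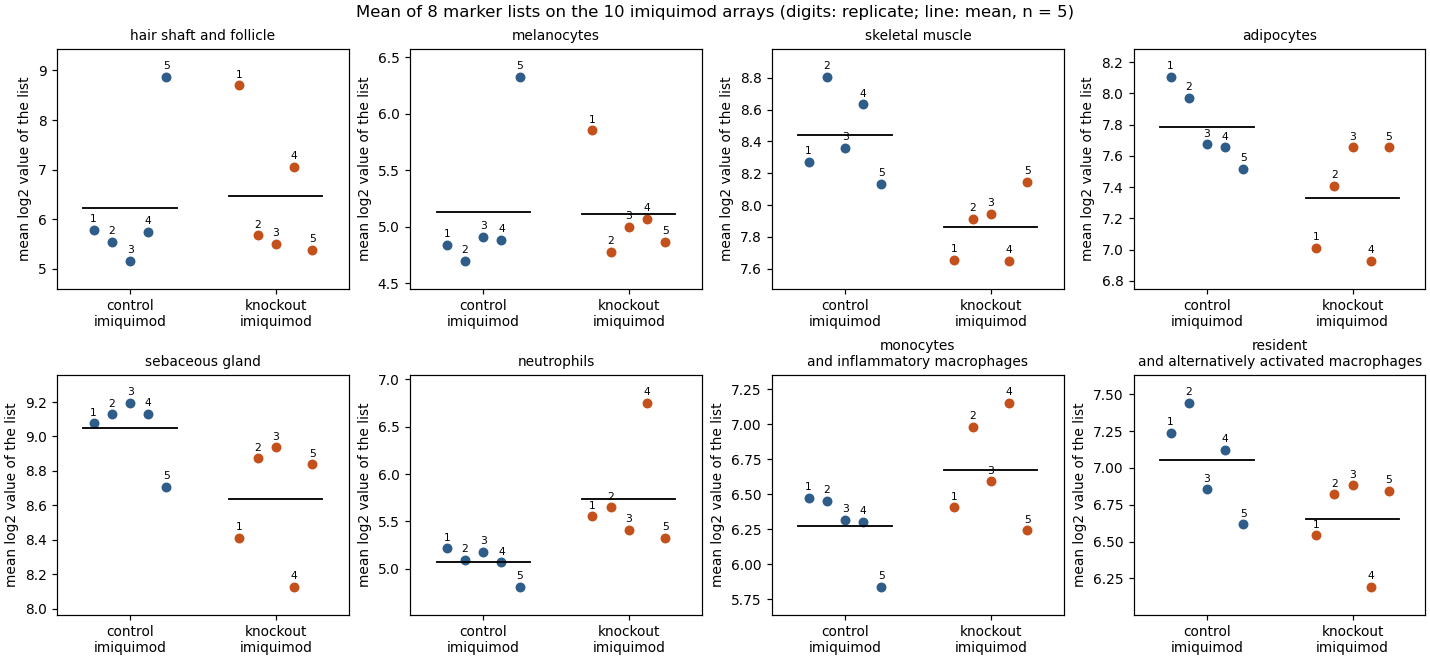
Mean log2 value of 8 marker gene lists (vertical axes) on the 10 imiquimod arrays, with controls in blue and knockouts in orange, each point an array labelled with its replicate number and each line a group mean of 5 arrays. Hair genes were high on control replicate 5 and knockout replicates 1 and 4, neutrophil genes on knockout replicate 4, and the muscle list was lower in knockouts with an overlap of the ranges.

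The upstream sequences of 6 genes that were higher in the knockout are shown as examples of the motif matches counted below. They were picked for holding a match, from the larger rises (Il1b, Ccl3, S100a9) and the most stable differences (Il19, Fetub, Cdhr1). Other large rises, among them Clec4e, Uox, Saa3 and Csta3, held none of the motifs searched. Each run is the 250 bases before the gene's RefSeq start, written 5′ to 3′ on the gene's strand, from RefSeq on build GRCm38.p6. Capitals mark a match to a C/EBP-type motif (TTNNGNAAT, either strand) in the first 4 and to a kB-type motif (GGG, any 2 bases, then TTTCC, either strand) in the last 2. The positions are chr2:129371140-129371389 (minus strand) for Il1b, chr1:130940116-130940365 (minus strand) for Il19, chr11:83649379-83649628 (minus strand) for Ccl3, chr3:90695722-90695971 (minus strand) for S100a9, chr16:22918132-22918381 (plus strand) for Fetub and chr14:37098348-37098597 (minus strand) for Cdhr1. Fetub has a second RefSeq start whose upstream bases held no match and are not shown.
Il1b: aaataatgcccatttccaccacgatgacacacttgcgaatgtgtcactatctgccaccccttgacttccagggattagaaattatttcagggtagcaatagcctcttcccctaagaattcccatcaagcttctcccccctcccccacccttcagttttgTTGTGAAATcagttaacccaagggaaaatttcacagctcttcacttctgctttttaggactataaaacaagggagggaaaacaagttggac
Il19: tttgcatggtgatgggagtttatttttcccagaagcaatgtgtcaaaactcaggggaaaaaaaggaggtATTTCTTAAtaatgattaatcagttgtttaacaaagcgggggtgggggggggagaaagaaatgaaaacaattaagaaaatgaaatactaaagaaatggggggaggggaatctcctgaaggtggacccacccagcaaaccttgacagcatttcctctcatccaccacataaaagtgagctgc
Ccl3: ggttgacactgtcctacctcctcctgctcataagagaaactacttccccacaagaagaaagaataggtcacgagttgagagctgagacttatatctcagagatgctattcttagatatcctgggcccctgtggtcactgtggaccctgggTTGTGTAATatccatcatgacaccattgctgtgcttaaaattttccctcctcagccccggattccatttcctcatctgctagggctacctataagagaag
S100a9: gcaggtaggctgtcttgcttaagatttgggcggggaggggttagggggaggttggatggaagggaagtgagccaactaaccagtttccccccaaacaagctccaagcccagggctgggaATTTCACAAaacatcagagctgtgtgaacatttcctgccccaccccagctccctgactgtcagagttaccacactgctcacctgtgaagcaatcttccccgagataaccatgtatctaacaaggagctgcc
Fetub: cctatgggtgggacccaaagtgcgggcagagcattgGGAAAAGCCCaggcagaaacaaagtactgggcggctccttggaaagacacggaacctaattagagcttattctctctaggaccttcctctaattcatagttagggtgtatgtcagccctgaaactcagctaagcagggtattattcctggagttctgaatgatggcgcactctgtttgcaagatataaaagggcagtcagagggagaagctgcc
Cdhr1: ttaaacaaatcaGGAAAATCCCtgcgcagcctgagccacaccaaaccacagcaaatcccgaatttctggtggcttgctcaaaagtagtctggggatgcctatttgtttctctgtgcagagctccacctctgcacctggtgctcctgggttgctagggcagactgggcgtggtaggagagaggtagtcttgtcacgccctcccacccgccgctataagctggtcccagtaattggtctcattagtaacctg

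Upstream sequences matched 62 of the 83 genes higher in the knockout and 29 of the 38 lower genes. The C/EBP-type motif occurred in 19 of the 62 higher genes (30.6%), in 5 of the 29 lower genes (17.2%) and in 10.5% of the 16990 tested genes with a sequence. The 19 include 4 neighbouring Sprr2 genes with related sequences, so they are not independent. The kB-type motif occurred in 4 of the 62 higher genes (6.45%: Cdhr1, Elf3, Fetub and Ms4a4a), in 0 of the 29 lower genes and in 1.67% of tested genes. An AP-1-type motif (TGANTCA) occurred in 4 of 62 higher genes, which were the same 4 Sprr2 genes, in 5 of 29 lower genes and in 7.44% of tested genes. A STAT-type motif (TTCCNGGAA) occurred in 1 of 62 higher genes (1.61%, Sbno2), in 0 of 29 lower genes and in 1.14% of tested genes. Median GC content of the windows was 51.8% for higher genes, 54.4% for lower genes and 55.6% for tested genes. These are letter matches in a fixed window, given as a description.

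Under imiquimod, skin of the knockouts had more message than control skin for interleukins 1β, 19, 17F and 33. The same held for S100A8 and S100A9, beta-defensins, serum amyloid A and small proline-rich proteins. There was less for keratin 77, filaggrin 2 and 3 epidermal Skint genes. Most of these calls were lost in some of the alternative fits given below. Of 22180 genes, 121 (0.546%) passed an adjusted p of 0.05 in limma's moderated test with Benjamini-Hochberg adjustment. Of these, 83 were higher (0.374% of all genes) and 38 lower (0.171%). These 2 shares are the background for the rises and falls counted in gene lists below. At least 2-fold differences were seen for 58 of them (0.261%), 44 higher (0.198%) and 14 lower (0.0631%). The median difference was 1.04 for the higher and -0.70 for the lower genes, against 0.006 over all genes. All 5 knockout arrays lay above all 5 controls for 69 of the 83 and below them for 30 of the 38. Over all genes the same was true of 289 (1.3%) and 259 (1.17%). At an unadjusted p under 0.05 there were 2218 genes, 10% of all, the background for the unadjusted counts of gene lists below. Knockout replicate 4 was the highest of the knockout arrays in 47 of the 83 higher genes and the lowest in 19 of the 38 lower genes.

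The direction of each of the 121 differences was the same in every alternative fit that tested the gene (26 fits, or 25 for genes that a filter on dim genes left out), while the number past the threshold moved a good deal. The 121 were called on these same arrays, and 69 of the 83 higher and 30 of the 38 lower had no overlap. Leaving out arrays cannot turn the sign of such a difference, so the kept directions are not independent support. Only 8 of the 121 genes passed in every alternative in which they were tested. A fit of the 10 imiquimod arrays alone called 17 genes, 16 of them among the 121. Without the 3 arrays high in hair genes, an alternative added after seeing the data, 17 genes were called and 16 of the 121 kept their call. With the muscle list as a covariate 45 of the 121 kept it, 42 of them higher genes and 3 lower genes. The count fell to 65, 45, 62 and 63 without control replicates 1, 2, 4 and 5, and to 72, 47 and 56 without knockout replicates 1, 2 and 4, and 40 of the 121 genes passed in all 10 fits that left out an array.

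**Figure D2:**
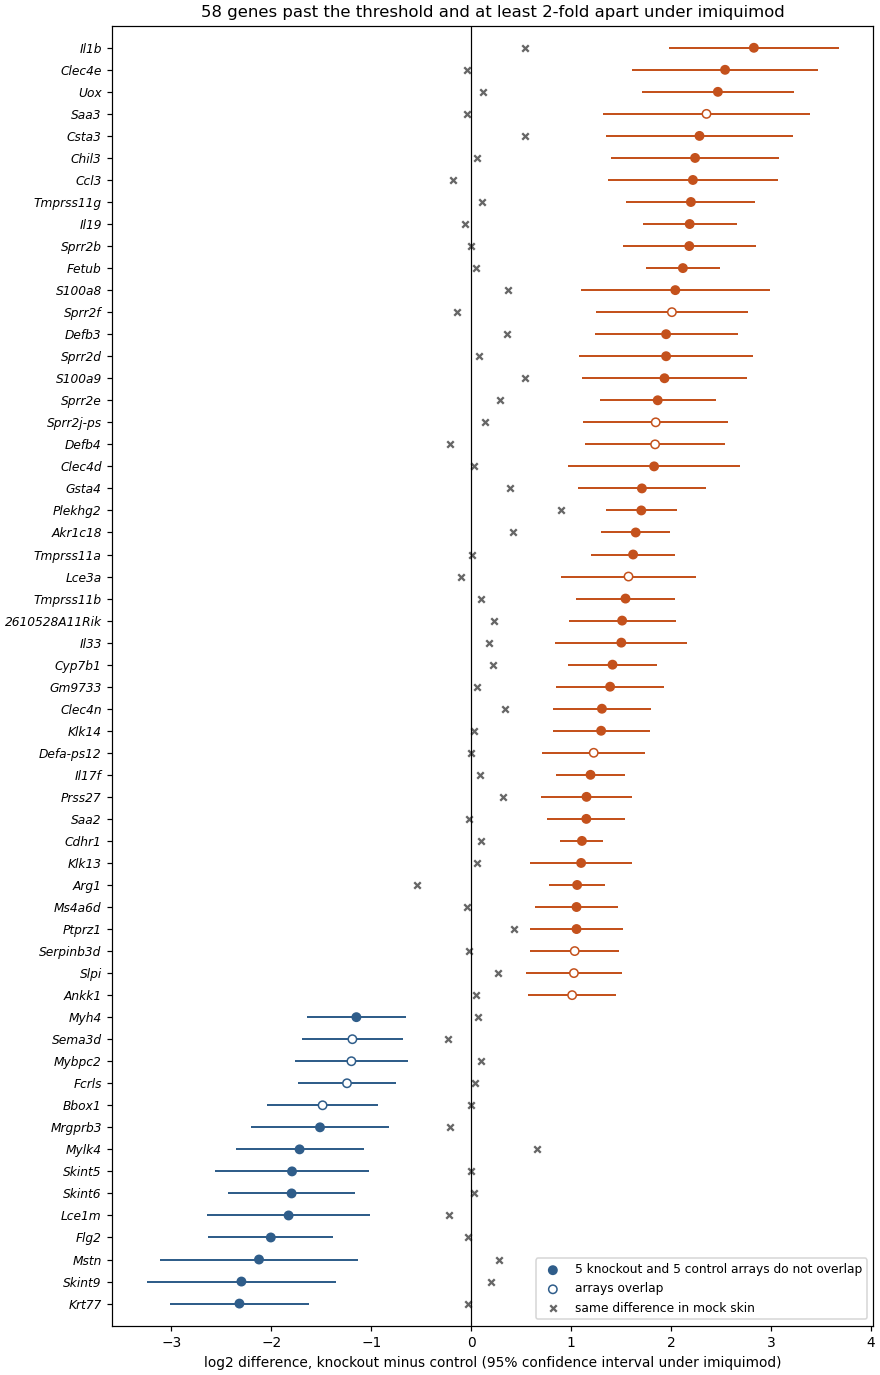
Log2 difference between knockout and control under imiquimod (horizontal axis) with its 95% confidence interval for the 58 genes past the threshold and at least 2-fold apart, 44 higher in orange and 14 lower in blue. Open circles mark genes whose arrays overlap between the groups, and grey crosses give the same difference in mock skin, which lies near 0 for most of these genes.

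Zfp36 itself read 8.04, 8.40, 7.99, 7.89 and 7.68 in the imiquimod-treated controls and 5.47, 7.41, 6.12, 7.18 and 5.82 in the knockouts. Every knockout array lay below every control, and the knockouts differed among themselves. The difference was -1.60, with an exact two-sided permutation p of 0.00794, the smallest that 5 against 5 arrays allow. In the fit across genes it had an adjusted p of 0.221. No source used here says whether the probes lie in the deleted stretch. The other members of the family bind the same kind of element. Zfp36l1 differed by 0.20 (95% confidence interval 0.04 to 0.36, adjusted p = 0.342), Zfp36l2 by 0.01 (-0.21 to 0.23, adjusted p = 0.994, a sign that turned in several alternatives), and 0 of 25 genes of the deadenylation and decay machinery passed in limma (median 0.05, or -0.07 with the muscle list as a covariate, 3 at an unadjusted p under 0.05).

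Plekhg2 is the immediate neighbour of Zfp36 in the RefSeq gene order on chromosome 7. It is outside the rule for named genes and was picked out after its values were seen. It read 5.13, 5.62, 5.22, 5.19 and 5.62 in controls and 7.18, 7.28, 6.74, 7.10 and 6.99 in knockouts. No arrays overlapped, and the difference of 1.70 (1.35 to 2.05) was 3.25-fold (adjusted p = 1.86e-05). In mock skin its level was 5.34 ± 0.18 (SD, n = 5) in controls and 6.24 ± 0.44 in knockouts, a difference of 0.90 that did not pass (adjusted p = 0.182). The next genes on either side did not pass under imiquimod, with differences of -0.07 for Med29, -0.05 for Rps16, 0.13 for Supt5 and 0.19 for Paf1. Whether RNA of the altered Zfp36 locus reaches the Plekhg2 probes was not tested.

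The 8 genes that passed in every alternative were Il19, Fetub, Plekhg2, Akr1c18, Tmprss11a, Cdhr1, Arg1 and Saa2. Il19 encodes a cytokine of the IL-20 subfamily, which acts on keratinocytes through the IL-20 receptor. It read 4.79, 4.71, 4.41, 4.65 and 4.35 in controls, close to mock skin (4.30 ± 0.27, SD, n = 5), and 7.16, 7.26, 6.13, 7.31 and 5.98 in knockouts. The lowest knockout stood more than 1 log2 unit above the highest control, and the difference of 2.19 (1.72 to 2.66) was 4.55-fold (adjusted p = 2.29e-05). Other measured members of the IL-20 family list did not pass, with 0.57 for Il24 (adjusted p = 0.221) and 0.20 for Il20 (adjusted p = 0.782).

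Fetub encodes fetuin B, a protease inhibitor of the cystatin superfamily that the liver secretes. Its values were 5.34, 5.42, 5.91, 5.60 and 5.25 in controls and 7.32, 8.11, 7.76, 7.04 and 7.88 in knockouts, with every knockout above every control. At 2.12 (1.75 to 2.49), or 4.34-fold, it had the smallest adjusted p of all genes (2.9e-06). Cdhr1, a cadherin-related protein known from photoreceptors, read 4.82, 4.73, 5.14, 4.82 and 4.74 in controls and 5.79, 6.09, 5.70, 6.18 and 6.03 in knockouts. The spread within either group was small beside the difference of 1.11 (0.89 to 1.32, adjusted p = 9.87e-06). Another called gene, 2610528A11Rik, lies within 10 protein-coding genes of Cdhr1 on chromosome 14. It rose by 1.51 and passed in all 10 fits that left out an array. Its provisional symbol leaves it outside the rule for named genes.

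Arg1 encodes arginase 1, which splits arginine to ornithine and urea and is expressed in keratinocytes and in activated macrophages. It read 6.34, 6.42, 6.47, 6.15 and 6.74 in controls and 7.40, 7.84, 7.42, 7.49 and 7.27 in knockouts, a difference of 1.06 (0.78 to 1.34, adjusted p = 0.000398). Mock skin stood at 7.47 ± 0.12 (SD, n = 5) in controls and 6.93 ± 0.29 in knockouts, so the imiquimod-treated controls were the low group and the treated knockouts were at the level of mock controls. Arg1 is itself 1 of the 21 genes of the monocyte and inflammatory macrophage list, of which 15 were above 0 (median 0.25) and 3 rose. Akr1c18, a hydroxysteroid dehydrogenase that inactivates progesterone, was also lowest in the treated controls. It read 7.74, 7.80, 7.72, 7.62 and 7.72 in treated controls and 8.78, 9.80, 9.30, 9.16 and 9.79 in treated knockouts (difference 1.65, adjusted p = 1.86e-05), beside 8.91 ± 0.24 and 9.32 ± 0.25 in mock skin of controls and knockouts.

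Tmprss11a, Tmprss11g and Tmprss11b encode membrane serine proteases of the airway trypsin-like group and lie side by side on chromosome 5. Tmprss11a read 5.19, 5.10, 5.19, 5.04 and 4.40 in controls and 6.30, 7.28, 6.80, 5.92 and 6.72 in knockouts (1.62, adjusted p = 0.000398). Tmprss11g read 5.27, 5.15, 5.32, 5.01 and 5.00 against 7.81, 7.72, 6.05, 8.58 and 6.58 (2.20, 4.59-fold, adjusted p = 0.00171). Tmprss11b rose by 1.54 (adjusted p = 0.00326), and none of the 3 had overlapping arrays. Saa2, an acute-phase serum amyloid A, rose by 1.15 (adjusted p = 0.00608) at a dim level, 2.82 to 3.63 in controls and 3.92 to 4.92 in knockouts, so its fold is uncertain. Cdhr1, Akr1c18, Tmprss11a, Tmprss11b, Saa2 and Cyp7b1 are outside the rule for named genes and were chosen after their values were seen.

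**Figure D3:**
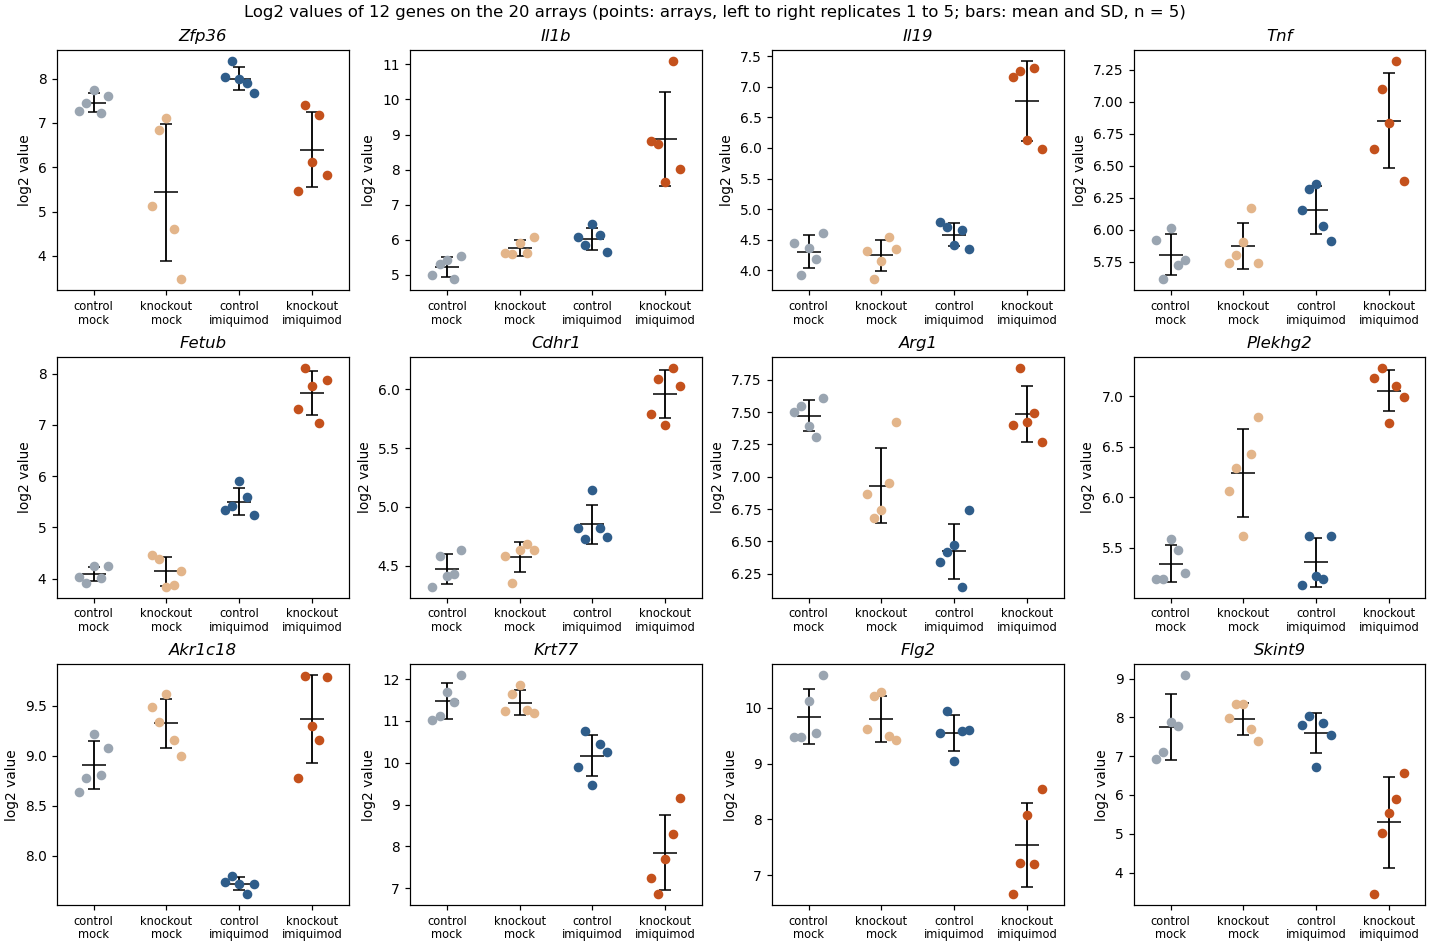
Log2 values (vertical axes, each with its own range) of 12 genes on all 20 arrays, with 5 points per group in the order mock control, mock knockout, imiquimod control and imiquimod knockout, and bars for the mean and SD. Il1b, Il19, Fetub and Cdhr1 were highest in the treated knockouts, Arg1 and Akr1c18 were low in the treated controls, and Krt77, Flg2 and Skint9 were low in the treated knockouts. For Il1b the genotype effect was not shown to differ between treated and mock skin.

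The difference between the genotype effect in treated and in mock skin was itself tested and passed for 4 genes (0.018% of all genes; 1497 genes, 6.75%, at an unadjusted p under 0.05), all of them among the 121. The treated effect exceeded the mock effect by 2.25 for Il19 (adjusted p = 0.00549), 2.07 for Fetub (adjusted p = 0.000723), 1.60 for Arg1 (adjusted p = 0.000723) and 1.01 for Cdhr1 (adjusted p = 0.00549). For the other called genes the effect in treated skin is not shown to differ from that in mock skin. None of the 121 passed in mock skin, where 2 genes passed in all (0.00902%; 708 genes, 3.19%, at an unadjusted p under 0.05). The mock difference had the same sign in 63 of the 83 higher genes (median 0.08) and in 20 of the 38 lower genes (median -0.02), while 52.2% of all genes were above 0.

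**Figure D4:**
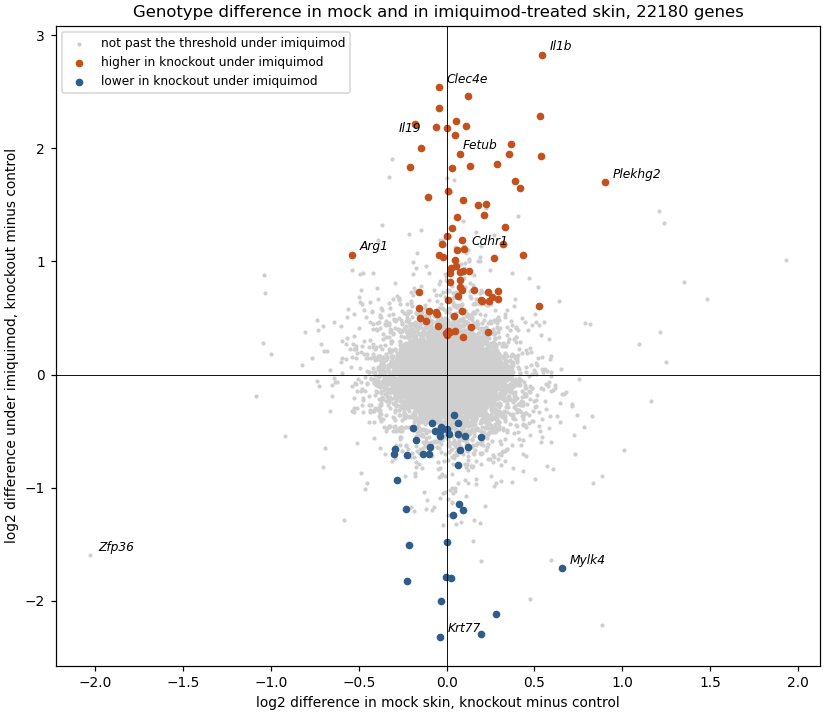
Log2 difference between knockout and control in mock skin (horizontal axis) and under imiquimod (vertical axis) for 22180 genes, with the 83 higher genes in orange, the 38 lower genes in blue and genes that did not pass in grey. Most coloured points lie near 0 on the horizontal axis, while Plekhg2 and Zfp36 lie away from 0 on both axes and Arg1 has opposite signs.

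Among 34 measured genes reported as ZFP36 targets, 4 rose (Il1b, Ccl3, Il23a and Tnf) and none fell, beside 0.374% of all genes that rose, and 29 of the 34 differences were above 0 (median 0.38, against 0.006 over all genes). Without control replicate 1, 2, 4 or 5 or knockout replicate 2 the count was 2, without knockout replicate 3 it was 7, and without the 3 arrays high in hair genes it was 1. The list was written with earlier results of these data known, so these counts are not an independent test. Il1b had the largest rise of all genes past the threshold. It read 6.08, 5.84, 6.46, 6.15 and 5.64 in controls and 8.82, 8.72, 7.64, 11.1 and 8.03 in knockouts, the highest on replicate 4. The groups did not overlap, and the difference of 2.83 (1.98 to 3.67) was 7.10-fold (adjusted p = 0.00186). Ccl3, a chemokine for monocytes and neutrophils, read 5.10, 4.67, 3.82, 4.71 and 3.90 in controls and 6.25, 6.38, 5.30, 8.77 and 6.59 in knockouts. It was 4.65-fold higher (2.22, adjusted p = 0.0138).

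Tnf read 6.15, 6.32, 6.36, 6.03 and 5.91 in controls and 6.63, 7.10, 6.83, 7.32 and 6.38 in knockouts. The groups did not overlap, with nearest arrays at 6.36 and 6.38, and the rise of 0.70 (0.40 to 1.0) was 1.62-fold (adjusted p = 0.0286). It passed in 4 of the 10 fits that left out an array. Il23a, the subunit particular to interleukin 23, rose by 0.75 (adjusted p = 0.0319), from 4.46 to 4.91 in controls to 4.96 to 5.98 in knockouts, and passed in 3 of those 10 fits.

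Other targets had larger differences that did not pass. Cxcl2 read 3.58 to 3.97 in controls and 5.28, 5.53, 4.29, 7.39 and 4.36 in knockouts (1.62, adjusted p = 0.0554), without overlap. Cxcl3 read 2.51 to 3.10 and 4.38, 3.60, 3.26, 7.43 and 4.14 (1.72, adjusted p = 0.147), also without overlap and with replicate 4 far above the rest. Il6 read 3.82 to 4.29 in controls and 4.95, 6.58, 4.01, 5.37 and 4.04 in knockouts (1.01, adjusted p = 0.207). Il10, Ifng and Csf2, whose messages carry AU-rich elements too, differed by 0.00, 0.03 and -0.06 at dim levels.

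The cytokines of the IL-17 and IL-1 families rose for single members. Il17f read 5.82, 5.47, 5.73, 5.31 and 5.64 in controls and 6.88, 7.34, 6.20, 7.02 and 6.5 in knockouts. All knockouts were above all controls, and the difference of 1.19 (0.85 to 1.53) was 2.29-fold (adjusted p = 0.00126). Il17c, which keratinocytes make, rose by 0.90 (adjusted p = 0.0200), from 4.99 to 5.66 in controls to 5.83 to 6.58 in knockouts. Il17a did not pass, at 3.93 to 4.61 in controls and 4.06 to 4.90 in knockouts (0.18, -0.14 to 0.50, adjusted p = 0.780). Of 15 measured genes of the IL-17 and IL-23 list 3 rose and none fell, with a median of 0.06, beside 0.374% of all genes that rose. The count was 1 without control replicate 1, 2 or 5 or knockout replicate 2, and 0 without the 3 arrays high in hair genes. Of the T cell list 0 of 16 passed in limma (median -0.01, or 0.18 with the muscle list as a covariate, 1 at an unadjusted p under 0.05), and Cd3e stood at 5.22 in controls and 5.07 in knockouts.

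Il33, an alarmin kept in the nucleus of epithelial cells, read 7.61, 7.44, 8.33, 8.0 and 7.02 in controls and 9.26, 9.47, 8.63, 10.19 and 8.36 in knockouts. The groups did not overlap, with nearest arrays at 8.33 and 8.36, and the difference of 1.5 was 2.83-fold (adjusted p = 0.0319). Together with Il1b it made 2 rises among 19 genes of the IL-1 system (median 0.06), beside 0.374% of all genes. Il33 passed in 3 of the 10 fits that left out an array. The IL-36 genes, abundant in the treated epidermis, did not pass. Il1f6 (IL-36α) was 10.74 ± 0.42 (SD, n = 5) in controls and 10.79 ± 0.29 in knockouts, a difference of 0.05 (-0.56 to 0.66), Il1f8 (IL-36β) differed by -0.26 and Il1f9 (IL-36γ) by 0.47. Osmr, a receptor chain for oncostatin M, rose by 0.67 (adjusted p = 0.0453), and also passed in 3 of the 10 fits that left out an array. Of the NF-kB response list 3 of 22 rose, beside 0.374% of all genes, and the median was 0.22. The 3 were Tnf, Tnfaip2 (0.96, adjusted p = 0.0200) and the nuclear IkB-like protein Bcl3 (0.55, adjusted p = 0.0273). None of the 22 passed without knockout replicate 2 or 4, or without the 3 arrays high in hair genes, and 1 passed without control replicate 1, 2, 4 or 5 or knockout replicate 1. Of 24 type I interferon response genes 0 passed in limma (3 at an unadjusted p under 0.05), and 22 were below 0 (median -0.18, which turned to 0.04 with the muscle list as a covariate).

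Genes of neutrophils and monocytes rose in part. Clec4e (Mincle), a lectin receptor for mycobacterial and fungal glycolipids, read 3.69, 3.68, 3.49, 4.01 and 3.13 in controls, near mock skin (3.27 ± 0.18, SD, n = 5), and 6.14, 6.5, 4.57, 8.45 and 5.04 in knockouts. No arrays overlapped and the difference of 2.54 was 5.82-fold (adjusted p = 0.0117). Its neighbours Clec4d and Clec4n, which encode related receptors, rose by 1.83 (adjusted p = 0.0465) and 1.31 (adjusted p = 0.0117). Chil3 (Ym1), a chitinase-like protein of myeloid cells, read 5.21, 4.72, 5.62, 3.55 and 3.95 in controls and 6.63, 7.75, 6.08, 8.06 and 5.73 in knockouts (2.24, adjusted p = 0.0117). Of the 20 neutrophil genes 2 rose (median 0.47) and of the 21 monocyte genes 3 rose (median 0.25), beside 0.374% of all genes. The granulocyte receptor Csf3r was just over the threshold (1.23, adjusted p = 0.0501). Ly6g stood at 3.09 in controls and 3.56 in knockouts, and the granule genes Elane, Mpo and Camp differed by 0.10, -0.13 and -0.01 at values of 3.36 to 4.65. Without knockout replicate 4, 3 neutrophil and 3 monocyte genes passed, with medians of 0.24 and 0.12. The neutrophil count was also 3 without control replicate 3 or knockout replicate 3 or 5, and 1 without any other single array. It was 0 with the muscle list as a covariate, or without the array of each group farthest in hair genes. Without the 3 arrays high in hair genes, 1 neutrophil and 1 monocyte gene passed (medians 0.23 and 0.07). The monocyte count was 3 or 4 when 1 array was left out and 2 with the muscle list.

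Antimicrobial and acute-phase genes of the skin held 8 rises among 25 with none lower (median 0.29), beside 0.374% of all genes that rose. Of the 25, 2 to 7 passed when an array was left out, with 4 without control replicate 1 or 5 or knockout replicate 1, 2 without control or knockout replicate 2 and 3 without knockout replicate 4, and 1 passed without the 3 arrays high in hair genes. S100a8 and S100a9 encode the subunits of calprotectin. S100a9 read 8.88, 8.16, 9.55, 8.92 and 6.38 in controls and 10.34, 10.61, 9.76, 10.62 and 10.23 in knockouts, and was 3.82-fold higher (1.93, adjusted p = 0.0275). S100a8 rose by 2.04 (adjusted p = 0.0452) and passed in 2 of 10 fits that left out an array. In mock skin of controls they stood at 4.67 ± 0.24 and 4.69 ± 0.41 (SD, n = 5). Defb3, an inducible beta-defensin, read 8.06, 7.43, 9.12, 7.79 and 6.19 in controls and 9.71, 10.02, 9.19, 10.08 and 9.34 in knockouts (1.95, adjusted p = 0.0117). In these genes the spread was wider in controls than in knockouts, with control replicate 5 lowest and control replicate 3 highest.

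Defb4 (1.84, adjusted p = 0.0136), Saa3 (2.35, adjusted p = 0.0323), the antiprotease Slpi (1.03, adjusted p = 0.0453) and Wfdc12 (0.66, adjusted p = 0.0437) rose with some overlap of the arrays. A second, dimmer probe set for Wfdc12 differed by -0.12 and did not pass. S100a7a (1.91, adjusted p = 0.448) and the neutrophil and keratinocyte lipocalin Lcn2 (1.34, adjusted p = 0.176) did not pass.

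Small proline-rich proteins are cross-linked into the cornified envelope and are induced in stressed epidermis. Of 11 measured, 4 of the Sprr2 group rose and none fell (median 1.33), beside 0.374% of all genes that rose. Sprr2b read 8.95, 8.47, 9.34, 8.49 and 6.78 in controls and 10.81, 10.94, 10.16, 10.44 and 10.59 in knockouts, all above the controls (2.18, 4.54-fold, adjusted p = 0.00229). Sprr2e rose by 1.87 (adjusted p = 0.00245), Sprr2f by 2.01 (adjusted p = 0.0117) and Sprr2d by 1.95 (adjusted p = 0.0364). Sprr2d passed in 2 of the 10 fits that left out an array, and Sprr2e and Sprr2f in all 10. Sprr1a (0.43) and Sprr1b (0.50) did not pass, at levels of 10.82 and 9.61 in controls. The Sprr2, stefin and Skint genes each belong to a family of related genes. Signal may be shared between probe sets of a family, which was not tested.

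Csta3, a stefin that inhibits cathepsins, read 8.6, 8.03, 9.75, 8.43 and 6.33 in controls and 10.41, 10.95, 10.05, 10.90 and 10.25 in knockouts. It was 4.87-fold higher (2.28, adjusted p = 0.0206), with no overlap. In mock control skin it was at 2.76 ± 0.24 (SD, n = 5). Of the Lce3 genes, which are induced in psoriatic and wounded skin, Lce3a rose by 1.57 (adjusted p = 0.0275) and passed in 4 of the 10 fits that left out an array. The kallikrein-related proteases Klk14 (1.3, adjusted p = 0.0117) and Klk13 (1.10, adjusted p = 0.0446) rose out of 12 measured, beside 0.374% of all genes. Klk13 passed in 1 of the 10 fits that left out an array. Ltb4r1, the receptor for the neutrophil attractant leukotriene B4, rose by 0.66 (adjusted p = 0.00978). Krt14, whose promoter drives the Cre, was 11.60 ± 0.19 (SD, n = 5) in controls and 12.13 ± 0.14 in knockouts without overlap (0.53, adjusted p = 0.0554), and all 4 stress keratin genes were above 0 (median 1.0) with 0 past limma's threshold and 3 at an unadjusted p under 0.05.

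Uox, urate oxidase, a liver enzyme of purine breakdown, was among the largest rises. It read 6.25, 5.07, 6.79, 5.48 and 5.02 in controls and 8.83, 8.92, 7.41, 8.58 and 7.21 in knockouts. The groups did not overlap, the difference of 2.47 was 5.53-fold (adjusted p = 0.00245), and the level in mock control skin was 4.47 ± 0.57 (SD, n = 5). Cyp7b1, an oxysterol hydroxylase, rose by 1.41 (adjusted p = 0.00267), from 5.32 to 6.15 in controls to 6.44 to 7.99 in knockouts.

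Among the 38 lower genes, Krt77, a type II keratin of the suprabasal epidermis and sweat ducts, had the largest fall. It read 9.91, 10.75, 9.47, 10.46 and 10.26 in controls and 7.25, 6.86, 7.69, 8.30 and 9.16 in knockouts, every one below the controls. The difference of -2.32 (-3.01 to -1.63) was 4.99-fold (adjusted p = 0.00186), and mock skin stood at 11.47 ± 0.43 (SD, n = 5) in controls and 11.44 ± 0.30 in knockouts. Flg2, filaggrin 2 of the cornified layer, read 9.54, 9.94, 9.04, 9.59 and 9.60 in controls and 6.66, 7.21, 8.07, 7.20 and 8.55 in knockouts. It was 4.01-fold lower (-2.0, adjusted p = 0.00245), and its treated controls were near mock controls (9.84 ± 0.49).

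These were the only falls among 31 cornified envelope and terminal differentiation genes (median -0.09). Flg (-0.63, adjusted p = 0.425), Lor (-0.65, adjusted p = 0.533), Krt1 (-0.27, adjusted p = 0.864) and Krt10 (-0.20, adjusted p = 0.755) did not pass. All 11 measured Lce1 genes, late cornified envelope proteins of normal epidermis, were below 0 (median -0.72), and Lce1m passed. It read 8.85, 9.39, 8.25, 8.82 and 8.41 in controls and 5.60, 6.93, 7.48, 6.78 and 7.80 in knockouts (-1.83, adjusted p = 0.0364). It passed in 3 of the 10 fits that left out an array, those without control replicate 3 or knockout replicate 3 or 5, and the median of the list was -0.16 with the muscle and -0.34 with the adipocyte list as a covariate. A second probe set of Lce1m differed by -0.79 and did not pass.

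Skint9, Skint6 and Skint5 belong to a family of butyrophilin-like proteins of the skin and thymus, named for Skint1, which selects the γδ T cells of the mouse epidermis. Skint9 read 7.79, 8.04, 6.73, 7.86 and 7.54 in controls and 3.45, 5.02, 5.53, 5.90 and 6.57 in knockouts (-2.30, 4.92-fold, adjusted p = 0.0222). Skint6 fell by 1.80 (adjusted p = 0.00978) and Skint5 fell by 1.79 (adjusted p = 0.0279), and the arrays of all 3 were apart. Replicate 1 was the lowest knockout in each of them. Of the 10 fits that left out an array, Skint6 passed in 10, Skint9 in 5 and Skint5 in 2. None of the 3 passed with the muscle list as a covariate or without the 3 arrays high in hair genes. Skint1 differed by -1.16 and did not pass (adjusted p = 0.116). Gjb5, a connexin of keratinocyte gap junctions, fell by 0.70 (adjusted p = 0.0377), and Mrgprb3, a Mas-related receptor, fell by 1.51 (adjusted p = 0.0417). Gjb5 and Mrgprb3 each passed in 2 of the 10 fits that left out an array.

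Muscle genes were among the falls. Mstn (myostatin), the brake on muscle growth, read 7.16, 8.02, 5.76, 7.68 and 6.06 in controls and 4.33, 5.39, 4.76, 3.91 and 5.68 in knockouts (-2.12, adjusted p = 0.0457). Its call held in 3 of the 10 fits that left out an array. Mylk4, a myosin light chain kinase family member, fell by 1.72 (adjusted p = 0.0117) and Myh4, a fast myosin heavy chain, fell by 1.15 (adjusted p = 0.0275). Of 24 skeletal muscle genes 1 passed and 19 were below 0 (median -0.67), with the mean of the list per array as given above. At an unadjusted p under 0.05 there were 18 of the 24, against 10% of all genes. All knockout arrays lay below all controls for 7 of the 24, against 1.17% of all genes. That 1 call, Myh4, was lost without control replicate 1, 2 or 4 or knockout replicate 1, 2 or 4. All 17 adipocyte genes were below 0 (median -0.45), with 0 past limma's threshold and 3 at an unadjusted p under 0.05, and the median was 0.10 with the muscle list as a covariate. Of 18 sebaceous gland genes 16 were below 0 (median -0.39), with 0 past limma's threshold and 8 at an unadjusted p under 0.05, and the median was -0.15 with the muscle and -0.19 with the adipocyte list as a covariate.

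**Figure D5:**
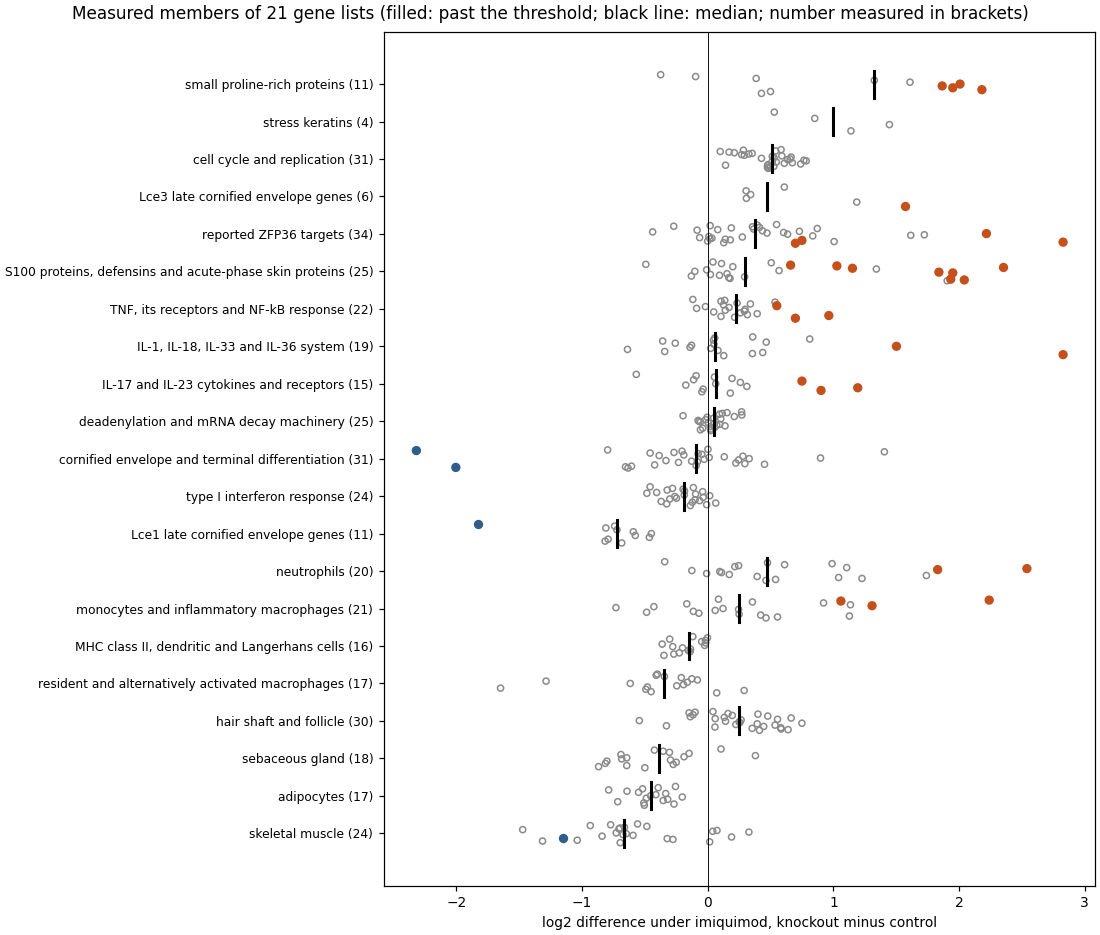
Log2 difference between knockout and control under imiquimod (horizontal axis) for the measured members of 21 gene lists, with filled points past the threshold (orange higher, blue lower), open points not past it and a black line at each list's median. Rises were 8 of 25 in the S100 and defensin list, 4 of 11 in the small proline-rich list and 4 of 34 among ZFP36 targets. They were 3 of 15 in the IL-17 and IL-23 list, 3 of 22 in the NF-kB list and 3 of 21 in the monocyte list. Over all genes 0.374% rose. The decay machinery, interferon, stress keratin and cell cycle lists are among those without a filled point.

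Of 31 measured cell cycle genes 0 passed in limma and 13 were at an unadjusted p under 0.05. All 31 were above 0 (median 0.51). The median was -0.03 with the muscle list as a covariate and 0.15 with the adipocyte list. It was 0.50 without the 3 arrays high in hair genes and 0.62 without the array of each group farthest in hair genes. When 1 array was left out it lay between 0.42 and 0.60. Of the 31 genes 3 had all knockout arrays above all controls, against 1.3% of all genes. These were Cdc20 (0.58, adjusted p = 0.147), Ccne1 (0.48, adjusted p = 0.0825) and Ube2c (0.59, adjusted p = 0.367). All 16 genes of antigen-presenting cells were below 0 (median -0.15), with 0 past limma's threshold and 1 at an unadjusted p under 0.05, and their median was 0.11 with the muscle list as a covariate.

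Genes that rose often lay beside each other. Of the 79 higher genes placed in RefSeq, 26 (32.9%) had another higher gene within 10 protein-coding genes, against 6.27% of the 18987 placed genes. Of 37 lower genes placed, 5 (13.5%) had a lower gene that near, against 3.27%. The runs include Sprr2b, Sprr2d, Sprr2e and Sprr2f on chromosome 3, Clec4n, Clec4d and Clec4e on chromosome 6, Tmprss11a, Tmprss11g and Tmprss11b on chromosome 5, Klk14 with Klk13 and Saa3 with Saa2 on chromosome 7, S100a8 with S100a9 on chromosome 3, and Wfdc12 with Slpi on chromosome 2. Cdhr1 with 2610528A11Rik on chromosome 14 was another run of higher genes. Lower runs were Skint9, Skint6 and Skint5 on chromosome 4 and Lce1m with Flg2 on chromosome 3. Most of these neighbours are related members of a gene family, so they are not independent observations.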

How the data were processed

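Skin RNA was purified by Trizol and RNeasy columns, and 200 ng per mouse went into the WT PLUS labelling for Affymetrix arrays, as the labels' protocols state. A single table of 41345 probe sets by 20 arrays was deposited by the authors. The deposited values were read as log2 because they run from 1.41 to 13.33, and no source used here names the summarisation, normalization or software. No detection calls were used, so a dim gene's fold is uncertain.

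Of the probe sets, 23521 had 1 symbol in the platform table, 1814 had several and 16010 had none, and 17824 were left out of the gene tests. The probe set with the highest mean over 20 arrays stood for a gene (1082 genes had several). Groups came from the sample labels, with 5 mice per group per the series design. Limma 3.58.1 in R 4.3.3 (lmFit, eBayes) was fitted to all 20 arrays with 1 mean per group (16 residual degrees of freedom), with Benjamini-Hochberg adjustment over 22180 genes and a threshold of 0.05. It was run on simulated data with normal noise of equal spread in all groups. That cannot show how the test behaves where the spread differs between groups. Intervals are 95% confidence intervals of the fit, and 5 arrays a group limit the precision. P-values measure the spread between these mice, with 1 spread per gene taken over treated and mock groups together. Folds are antilogs of log2 differences.

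The text names the 15 largest rises and 15 largest falls among genes past the threshold without overlap of the arrays, leaving out provisional symbols, up to 4 rises and 4 falls of each of 48 gene lists (or the 2 smallest p), and a fixed set, and it gives a part of these. Other list members are given as values of their list. The genes and lists were chosen with earlier results of these data known. The always-named genes included Xist, which differed by -0.21 between the groups (adjusted p = 0.247). Deviations of same-numbered replicates correlated at -0.41 to 0.31 in treated skin and at -0.63 to 0.43 in mock skin. Values of mixed sign cannot show whether the numbers pair the mice, and the main fit used no pairing. Alternatives were only the 10 treated arrays, a replicate block, other prior variances, array weights, quantile normalization or median centring, other probe set rules, leaving out the dimmest 30% of genes, tissue lists as covariates, and arrays left out. Promoter matches used RefSeq sequences of GRCm38.p6.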

Additional observations from a re-analysis of the deposited data

Results flagged for a closer look

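Of 306 sets of 5 arrays examined, 23 had an array far from the other 4, and chance alone gives about 1 in 20. Most were control replicate 5. Its mean over the hair list was 8.88, against 5.16 to 5.79 on the other treated controls, and over the melanocyte list 6.33, against 4.70 to 4.91. It was low in the lists of the IL-1 system (7.63, others 7.93 to 8.0), clade B serpins (6.90, others 7.22 to 7.28), barrier ceramides (8.98, others 9.30 to 9.42), glycolysis and hypoxia (7.44, others 7.74 to 7.84), monocytes and inflammatory macrophages (5.84, others 6.30 to 6.47), antigen-presenting cells (5.73, others 5.97 to 6.06), endothelium (5.75, others 6.15 to 6.21), sebaceous gland (8.71, others 9.08 to 9.20) and skin identity (10.66, others 10.92 to 10.99). It was also apart in Foxn1 (6.76, others 5.49 to 5.79), Mitf (7.80, others 6.76 to 6.94), Scn7a (6.73, others 7.58 to 7.83) and Sprr2e (6.64, others 8.39 to 8.86).

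Knockout replicate 4 was high in the neutrophil list (6.76, others 5.33 to 5.65) and the neutrophil-attracting chemokine list (6.31, others 4.94 to 5.31), and low in Myh4 (8.63, others 9.51 to 9.86) and Serpinb3d (3.99, others 5.09 to 5.41). Knockout replicate 5 was high in Retnla (5.01, others 3.60 to 3.97) and knockout replicate 1 in the melanocyte list (5.86, others 4.78 to 5.07). The mean of the immediate early genes was high on control replicate 2 (7.85, others 7.47 to 7.54) and on knockout replicate 2 (7.79, others 7.42 to 7.52).

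The genotype effect differed between treated and mock skin by the test of that difference for Il19 (2.25), Fetub (2.07), Arg1 (1.60) and Cdhr1 (1.01), each higher under imiquimod.

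In a fit of all 41345 probe sets, 9 probe sets without a single gene symbol passed, 8 higher and 1 lower in the knockout, among 67 called. They are unnamed here.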

How the results depend on the processing

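The count of genes past the threshold was 121 (83 higher, 38 lower). It was 17 (12 and 5) with only the 10 treated arrays. That fit has fewer residual degrees of freedom and takes the spread from treated arrays alone. The part of either in the lower count was not tested. Means of the Lce3 list per control array ran from 7.14 to 9.17 under imiquimod and from 4.16 to 4.71 in mock skin. Those of the hair list ran from 5.16 to 8.88 and from 5.75 to 9.72. The count was 78 (56 and 22) with the replicate block, 242 (144 and 98) with array weights, and 335 (158 and 177) after adding the hair list as a covariate. It was 66 (56 and 10) with the adipocyte list, 121 (87 and 34) with the muscle list, and 32 (25 and 7) without the array of each group farthest in hair genes. Of 2 alternatives chosen after seeing the data, leaving out the 3 arrays high in hair genes gave 17 (14 and 3) and the sebaceous list as a covariate 26 (24 and 2). Leaving out 1 array gave 45 to 174 genes, 36 to 114 higher and 6 to 63 lower. With hair genes as covariate, 5 genes passed in mock skin in place of 2, and 12 in place of 4 for the difference between the genotype effects. The replicate block changed no other count by over 1.5 times. The other alternatives for the count of 121 (trend, robust prior, quantile normalization, median centring, probe set rules, dim genes left out) gave 106 to 134. All 121 directions held in every alternative that tested the gene (26, or 25 for dim genes). The genes were called on these same arrays, so this is not independent support. Differences that changed sign were of genes that had not passed: with the muscle list, Cd3g 0.0752, Cdh19 0.16, Dpt 0.0924, Foxn1 -0.69, Itgae 0.11, Scn7a 0.37 and Slc4a1 -0.29. With the adipocyte list these were Foxn1 -0.23 and Scn7a 0.18, and with the sebaceous list Foxn1 -0.20 and Scn7a 0.14. Zfp36l2 was -0.0045 with array weights, -0.0038 after quantile normalization, -0.0225 and -0.0258 without hair-rich arrays (1 per group, or all 3), and -0.045 to 0.05 when 1 array was left out (-0.045, -0.0025 and -0.012 without control replicate 3, control replicate 5 and knockout replicate 1). The cause of these shifts was not tested. Of the 121, 15 averaged under 5 on the treated arrays, where distance from background is unknown.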
